A study of Mus musculus with 6 samples.

Results

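The complement components examined here are 9 mouse genes, C1qa, C1qb, C1qc, C2, C3, C4b, Cfb, Cfp and C3ar1, chosen by name for their place in the complement cascade, out of 27815 gene identifiers measured in the aorta. Polyadenylated RNA of C57BL/6 aorta gave 6 libraries, a pair for each of 3 groups. Wild-type mice aged 2 months served as controls (Ctrl). The ApoE group was ApoE-/-, lacking apolipoprotein E, had eaten chow for 16 months and carried atherosclerotic calcification. The CKD group had both poles of the left kidney removed at 8 weeks and the right kidney removed after 1 week of recovery. For 4 weeks after surgery its food held 2% phosphate and its water 0.45% NaCl, a model of medial calcification. GEO's label gives CKD an age of 16 months, which this protocol does not, and the true age is not known here. ApoE and Ctrl differ in age as well as in genotype, and the effects of each cannot be told apart. CKD and Ctrl differ in surgery, food, water and perhaps age, with no library of sham surgery or of the diet alone. ApoE and CKD differ in the deleted gene, in these treatments and perhaps in age. In these comparisons too the effects cannot be told apart. Whether the libraries of a group are from different animals or pooled ones is not stated, so p-values reflect the spread of these libraries alone, and that spread may be technical.

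Complement is a cascade of plasma and tissue proteins that marks particles, dying cells and microbes for removal. The classical route starts when C1q, built from the products of C1qa, C1qb and C1qc, binds its target and its proteases cut C4 and C2. The alternative route amplifies the response through factor B (Cfb), and properdin (Cfp) stabilises its enzyme complex. Both routes converge on C3, whose small fragment C3a is sensed by the receptor C3ar1. Liver supplies most circulating complement, while tissue macrophages are the main makers of C1q, and fibroblasts and other stromal cells make C3 and C4 locally. On that background the members were described as a macrophage-type set (C1qa, C1qb, C1qc, Cfp and C3ar1) and a stromal-type set (C3, C4b, C2 and Cfb). These names follow the sources given above for the C1q chains, C3 and C4b only. Cfp, C3ar1, C2 and Cfb were placed in a set by choice, so the name is no statement of their usual source. In whole aorta the source of a transcript was not measured, and more cells of a type cannot be told apart from more RNA per cell.

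Levels are in FPKM, a read count divided by exon length and library depth. The depth, inferred from the values, was 14.44 to 16.64 M reads. Apoe, the deleted gene, stood at 756 and 627 FPKM in Ctrl, 13.2 and 11.4 in ApoE and 1410 and 1447 in CKD, so it was lowest in the libraries labelled ApoE. Mitochondrial genes took 3.13% and 4.19% of reads in Ctrl, 9.66% and 10.89% in ApoE and 9.99% and 5.70% in CKD. Smooth muscle markers, the defining genes of the aortic wall, were present in all 6 libraries, with summed levels of 7406 to 8265 FPKM in Ctrl, 557 to 638 in ApoE and 3384 to 5892 in CKD. Fold changes are on the scale of log2(FPKM + 1), which understates changes of low genes. A gene was called when its Benjamini-Hochberg adjusted p, from a limma fit of all 6 libraries over 14074 genes, was below 0.05. The comparisons share libraries and are not independent of each other.

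Promoter sequences were found for 5 members in the reference used here, and none for C1qa, C2, C4b or Cfb. Those of 4 members are shown because these genes separate the patterns described below: 2 of the C1q chains, the receptor, and C3. All 4 are transcribed from the minus strand. The sequences are those of RefSeq on GRCm38.p6, end at the base before the transcription start of the RefSeq model or at the edge of annotated exon, and are written 5′ to 3′ on the gene's strand. Capitals mark short motifs that a search of both strands found; the motifs were picked after the sequences were seen.
C1qb, chr4:136886201-136886450: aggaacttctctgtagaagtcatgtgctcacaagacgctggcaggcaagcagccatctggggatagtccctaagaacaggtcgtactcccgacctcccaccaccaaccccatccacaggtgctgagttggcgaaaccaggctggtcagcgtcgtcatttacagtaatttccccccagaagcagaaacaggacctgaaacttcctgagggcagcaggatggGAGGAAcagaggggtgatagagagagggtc
C1qc, chr4:136893066-136893164: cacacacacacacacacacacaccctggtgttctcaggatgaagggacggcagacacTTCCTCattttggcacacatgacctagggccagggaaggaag
C3, chr17:57228137-57228386: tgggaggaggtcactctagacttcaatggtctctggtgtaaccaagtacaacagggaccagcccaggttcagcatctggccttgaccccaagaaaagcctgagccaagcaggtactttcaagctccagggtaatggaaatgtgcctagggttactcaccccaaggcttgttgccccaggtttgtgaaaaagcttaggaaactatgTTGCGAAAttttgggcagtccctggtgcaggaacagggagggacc
C3ar1, chr6:122856162-122856407: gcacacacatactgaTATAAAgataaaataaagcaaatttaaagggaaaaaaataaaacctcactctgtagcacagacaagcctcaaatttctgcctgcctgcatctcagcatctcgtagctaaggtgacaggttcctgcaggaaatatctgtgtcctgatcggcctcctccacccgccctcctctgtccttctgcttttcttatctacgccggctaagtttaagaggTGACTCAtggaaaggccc

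The purine box GAGGAA, a core bound by ETS factors, lay at bases -30 to -25 from the start of C1qb. Its reverse complement lay at bases -193 to -188 from that of C1qc, whose shown stretch is the 99 bases outside annotated exon. GAGGAA occurs in 23.3% of 32851 promoters of 250 bases. C3 held TTGCNNAA, a form of the C/EBP site, at bases -45 to -38, which 9.6% of promoters share. C3ar1 held TGANTCA, an AP-1 site, at bases -22 to -16 (6.7% of promoters), and TATAAA at bases -235 to -230 (12.4%). The Cfp promoter held none of these 4 motifs. A match describes the letters only; binding was not measured.

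The first comparison asked how complement expression differed between the aorta with calcified plaques and the young wild-type aorta. All 5 macrophage-type members rose, and of the stromal-type members C4b did. In ApoE against Ctrl, 6 of the 8 members tested were called higher and none lower, where 19.8% of all tested genes were called higher and 24.3% lower. The median log2 fold change was 2.88 over the 8 members and -0.07 over all genes. In all 8 both ApoE libraries lay above both Ctrl libraries; over all genes the groups did not overlap in 79.4%, in either direction. Cfb was too low to test.

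C1qa (ENSMUSG00000036887; GRCm38 chromosome 4, 136895917 to 136898803), the A chain, stood at 135.6 and 119.0 FPKM in Ctrl, 1144 and 1039 in ApoE, and 258.7 and 372.1 in CKD. The 3 groups did not overlap, with Ctrl lowest and ApoE highest. Against Ctrl, C1qa was higher in ApoE by 3.09 (log2, SE 0.23, limma adjusted p = 0.00042). C1qb (ENSMUSG00000036905; chromosome 4, 136880129 to 136886187), the B chain, stood at 102.7 and 92.9 FPKM in Ctrl, 1148 and 1424 in ApoE, and 217.8 and 300.4 in CKD. Its order of groups was the same, and the rise in ApoE was 3.70 (SE 0.23, limma adjusted p = 0.000283). C1qc (ENSMUSG00000036896; chromosome 4, 136889804 to 136893065), the C chain, stood at 58.3 and 49.5 FPKM in Ctrl, 608 and 676 in ApoE, and 115.4 and 161.4 in CKD. Again no group overlapped another, and the rise in ApoE was 3.55 (SE 0.22, limma adjusted p = 0.000277). The 3 genes are neighbours on chromosome 4, in the order C1qb, C1qc, C1qa by coordinate, and shared no window of 50 bases with each other, so their reads can be assigned to each.

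The chains were not in a fixed ratio. C1qb stood at 0.757 and 0.780 of the C1qa level in Ctrl, at 0.842 and 0.807 in CKD, and at 1.00 and 1.37 in ApoE. C1qc stood at 0.430 and 0.416 of C1qa in Ctrl, 0.446 and 0.434 in CKD, and 0.532 and 0.651 in ApoE. Both ratios were therefore highest in the ApoE libraries, in which the 2 libraries also lay furthest apart; the differences in ratio were not tested.

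Cfp (ENSMUSG00000001128; chromosome X, 20925454 to 20931555), properdin, the stabiliser of the alternative-route enzyme, stood at 18.1 and 15.4 FPKM in Ctrl, 115 and 109 in ApoE, and 20.8 and 28.2 in CKD. The ApoE libraries stood far above the other 4, and the rise over Ctrl was 2.67 (SE 0.19, limma adjusted p = 0.000357). C3ar1 (ENSMUSG00000040552; chromosome 6, 122847138 to 122856161), the C3a receptor, stood at 3.34 and 2.73 FPKM in Ctrl, 65.8 and 69.4 in ApoE, and 3.14 and 6.39 in CKD. Its CKD libraries overlapped Ctrl, while ApoE lay far above both. The rise in ApoE, 4.09 (SE 0.27, limma adjusted p = 0.000344), was the largest fitted fold change among the members. All 5 macrophage-type members stayed called higher in ApoE, against Ctrl and against CKD, in each of the alternative fits.

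C4b (ENSMUSG00000073418; chromosome 17, 34728380 to 34743882), which supplies the C4 that is cut after C1q binds, stood at 25.7 and 22.1 FPKM in Ctrl, 173.6 and 91.2 in ApoE, and 90.7 and 109.7 in CKD. Both disease groups lay above Ctrl and overlapped each other. The rise in ApoE was 2.35 (SE 0.32, limma adjusted p = 0.0028). The adipocyte markers' level did not overlap between Ctrl and either disease group. With it as a covariate the C4b difference was 2.79 and missed the threshold (limma adjusted p = 0.0535). C4a, its near copy, stood between 0.245 and 0.687 FPKM, and 34.6% of the 50-base windows of C4b also occur in it. How reads matching both were counted is not given in the sources used here.

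C3 (ENSMUSG00000024164; chromosome 17, 57203970 to 57228136), the hub of the cascade, stood at 102.5 and 106.8 FPKM in Ctrl, 341.8 and 123.0 in ApoE, and 298.3 and 320.6 in CKD. The 2 ApoE libraries disagreed: ApoE 1 was the highest of all 6, and ApoE 2 lay just above Ctrl. The fitted difference of 0.97 (SE 0.45) between ApoE and Ctrl missed the threshold (limma adjusted p = 0.134). Without ApoE 2 the difference was 1.70 and C3 was called higher (limma adjusted p = 0.00976); without ApoE 1 it was 0.23 (limma adjusted p = 0.418). Summed fibroblast markers were also lower in ApoE 2 (784 FPKM) than in ApoE 1 (1156); their part in the C3 result was not tested.

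C2 (ENSMUSG00000024371; chromosome 17, 34862604 to 34898265), the protease that joins C4 in the classical enzyme, stood at 0.854 and 0.785 FPKM in Ctrl, 1.51 and 0.869 in ApoE, and 1.24 and 1.36 in CKD. No comparison passed the threshold, with 0.25 (SE 0.19, limma adjusted p = 0.317) for ApoE against Ctrl and 0.34 (SE 0.19, limma adjusted p = 0.278) for CKD against Ctrl. Of its exon bases, 46.9% lie in other gene models, 42.8% in Gm20547 and 4.2% in Zbtb12 on the opposite strand. Cfb (ENSMUSG00000090231; chromosome 17, 34856374 to 34862518), factor B, had an inferred 10 and 7 reads in Ctrl, 6 and 1 in ApoE, and 3 and 5 in CKD, or 0.0238 to 0.213 FPKM. These counts are too low for a fold change. As 79.5% of its exon bases also lie in Gm20547, which was not analysed here, its value is uncertain; how reads shared by these models were counted is not given in the sources used here.

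**Figure D1:**
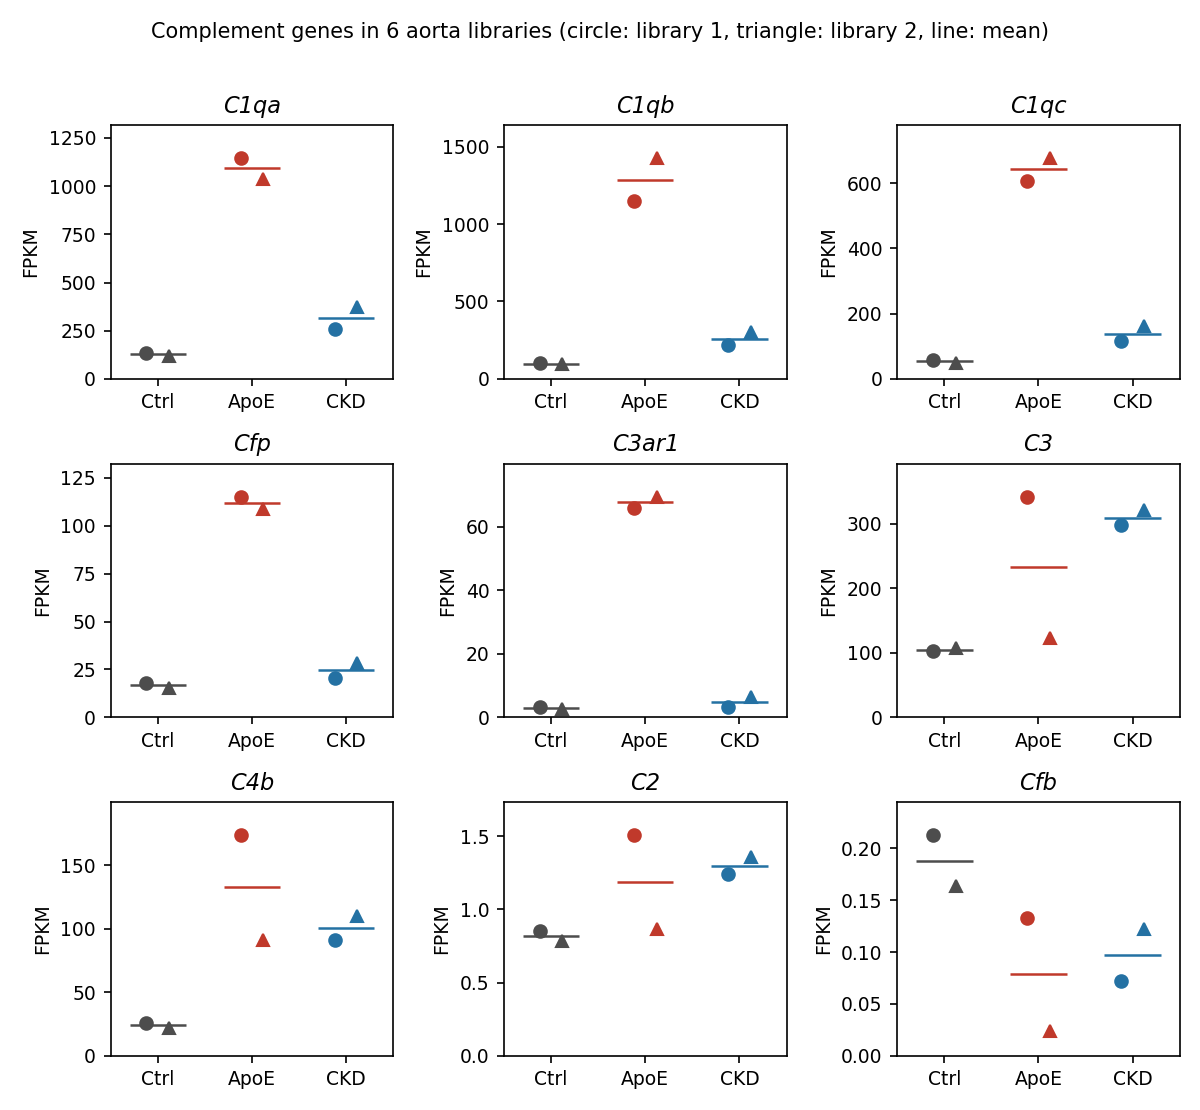
FPKM of the 9 complement members in each of the 6 aorta libraries, one panel per gene with its own linear axis from 0; circles are library 1, triangles library 2 and lines group means. In the C1q, Cfp and C3ar1 panels both ApoE libraries stand above the other 4, whereas in the C3 panel ApoE 1 at 341.8 and ApoE 2 at 123.0 lie apart.

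The second comparison asked the same of the CKD aorta, after kidney surgery and the phosphate and salt diet together. In CKD against Ctrl, 4 of the 8 members tested were called higher and none lower, where 2.23% of all tested genes were called higher and 3.21% lower. C1qa was higher by 1.28 (SE 0.23, limma adjusted p = 0.0409), C1qb by 1.38 (SE 0.23, limma adjusted p = 0.0376), C1qc by 1.33 (SE 0.22, limma adjusted p = 0.0372) and C4b by 2.02 (SE 0.32, limma adjusted p = 0.0348). In these 4 genes both CKD libraries lay above both Ctrl libraries, as was so for either direction in 64.2% of all genes. These calls stood close to the threshold. They were lost without any 1 library other than CKD 2, as were most or all calls over all genes. The loss was therefore not specific to these 4 members. With 1 library left out their fitted differences stayed positive, at 1.09 to 1.57 for C1qc and 1.89 to 2.16 for C4b. With adipocyte level as covariate the 4 calls were lost as well (limma adjusted p from 0.280 to 0.476). In that fit 0 of all 14074 genes were called. The fitted differences were larger, at 1.98 for C1qa, 1.98 for C1qb, 2.02 for C1qc and 2.47 for C4b.

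C3 was 1.55 higher in CKD (SE 0.45), the second largest difference among the members after C4b, but missed the threshold (limma adjusted p = 0.0929). The difference of Cfp was 0.51 (SE 0.19, limma adjusted p = 0.137) with no overlap between the libraries, and that of C3ar1 was 0.46 (SE 0.27, limma adjusted p = 0.306) with overlap. By fitted value, the CKD aorta thus carried its largest differences in C4b and C3, and the ApoE aorta in C3ar1 and the C1q chains.

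In ApoE directly against CKD, 5 of 8 members were called higher and none lower, where 18.5% of all tested genes were called higher and 21.2% lower. In those 5 the libraries did not overlap, as in 71.0% of all genes. They were the macrophage-type members: C3ar1 by 3.63 (SE 0.27, limma adjusted p = 0.000865), C1qb by 2.32 (SE 0.23, limma adjusted p = 0.00146), C1qc by 2.22 (SE 0.22, limma adjusted p = 0.00144), Cfp by 2.16 (SE 0.19, limma adjusted p = 0.00111) and C1qa by 1.81 (SE 0.23, limma adjusted p = 0.00295). C4b (0.33, SE 0.32, limma adjusted p = 0.442), C3 (-0.59, SE 0.45, limma adjusted p = 0.344) and C2 (-0.09, SE 0.19, limma adjusted p = 0.74) did not pass. Without ApoE 1, C3 was called lower in ApoE than in CKD (-1.32, limma adjusted p = 0.0172); without ApoE 2 the difference was 0.14 (limma adjusted p = 0.65).

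**Figure D2:**
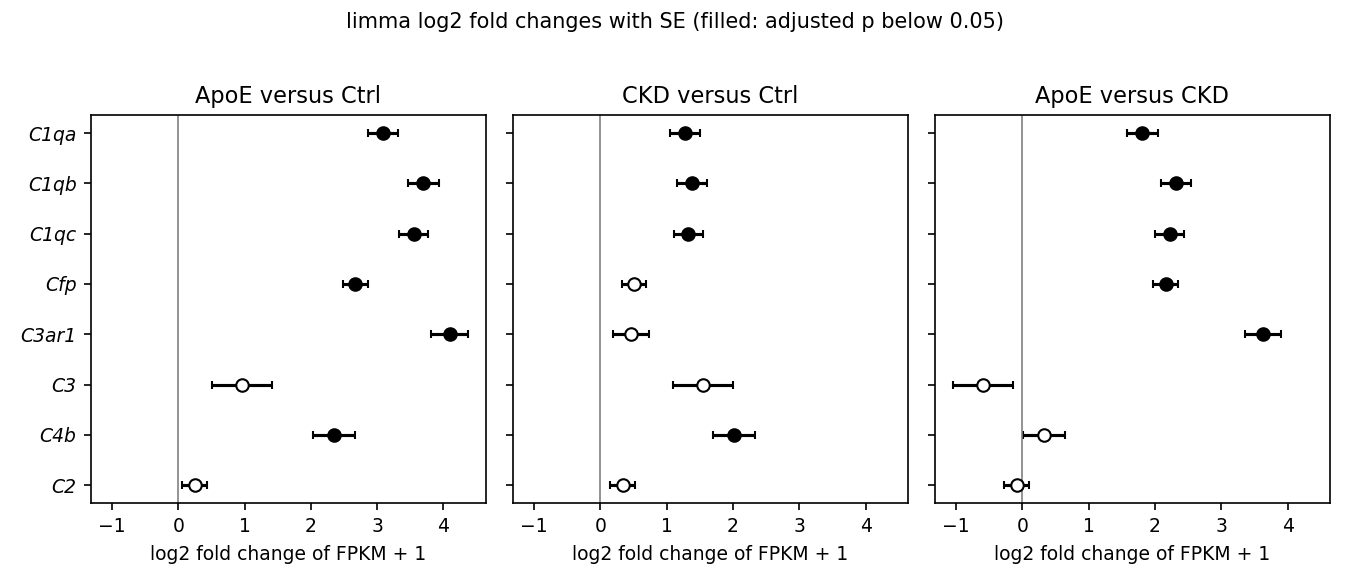
limma log2 fold changes of FPKM + 1 with their standard errors for the 8 members tested in the 3 comparisons; filled points have an adjusted p below 0.05. C3ar1 and the C1q chains lie furthest right in ApoE versus Ctrl, while in CKD versus Ctrl C4b and C3 have the largest values, at 2.02 and 1.55.

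The contrast of macrophage-type and stromal-type members was taken within each library, as the difference of their mean log2(FPKM + 1) levels. It was 2.06 and 1.93 in Ctrl, 4.16 and 4.96 in ApoE, and 1.83 and 2.24 in CKD. ApoE thus stood 2.56 above Ctrl, and CKD 0.04 above Ctrl. The macrophage-type mean level was 5.21 and 5.01 in Ctrl, 8.5 and 8.56 in ApoE, and 5.83 and 6.37 in CKD; the stromal-type level was 3.15 and 3.08, 4.34 and 3.60, and 4.00 and 4.13 in the same order. The small CKD difference rests on C2 and Cfb, which lie near or under 1 FPKM and can hardly move on this scale. Against C3 and C4b alone, a choice made after the data were seen, the contrast was -0.51 and -0.63 in Ctrl, 0.57 and 1.82 in ApoE, and -1.54 and -1.18 in CKD. Then ApoE stood 1.76 above Ctrl, and CKD stood at -0.80 from Ctrl, so the direction in CKD depended on these low genes. No test was made of this score, as its members were chosen. In FPKM, C1qa per C3 was 1.32 and 1.11 in Ctrl, 3.35 and 8.45 in ApoE, and 0.87 and 1.16 in CKD. C1qa per C4b was 5.27 and 5.4 in Ctrl, 6.59 and 11.4 in ApoE, and 2.85 and 3.39 in CKD, lowest in CKD.

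Markers of the cells that could carry these transcripts moved with the groups. Of 12 macrophage markers, 9 were called higher in ApoE and 3 in CKD against Ctrl; their summed level was 376 to 396 FPKM in Ctrl, 5145 to 8604 in ApoE and 779 to 1332 in CKD. Lyz2 alone, lysozyme, made up 3885 and 7240 FPKM of the ApoE sums. Cd163 and Lyve1, markers of resident macrophages, did not follow in ApoE. Cd163 stood at 25.4 and 24.9 FPKM in Ctrl, 18.3 and 9.20 in ApoE and 28.8 and 60.4 in CKD. Lyve1 stood at 40.4 and 44.1, 43.5 and 13.4, and 89.7 and 141. For each, both CKD libraries lay above both Ctrl libraries. Neither was called against Ctrl. Both were lower in ApoE than in CKD (-1.61, limma adjusted p = 0.0286, and -2.17, limma adjusted p = 0.0229). Mrc1, another of the 12 markers, lay above Ctrl without overlap in both disease groups. It was called in neither (limma adjusted p = 0.108 in ApoE and 0.178 in CKD). Vsig4, a receptor of resident macrophages described below, was called higher in both. Of 10 fibroblast markers, 6 were called lower in ApoE and 1 lower in CKD, and none higher in either; their sums were 2134 to 2442 FPKM in Ctrl, 784 to 1156 in ApoE and 1164 to 1773 in CKD. Of 6 adipocyte markers, 5 were called higher in ApoE and 1 in CKD, with sums of 129 to 332 FPKM in Ctrl, 1065 to 1121 in ApoE and 803 to 2568 in CKD. Mesothelial markers, from the lining of body cavities, were called higher in 4 of 5 tested in ApoE and 5 of 5 in CKD, with sums of 0.456 to 1.06, 5.88 to 9.88 and 47.4 to 61.1 FPKM. None of 5 tested neutrophil markers and none of 5 tested T and B cell markers was called against Ctrl, and Ly6g was at 0 in 5 of 6 libraries. Hepatocyte markers summed to 0 to 3.04 FPKM, and none of them reached the level needed for a test. The part of these cell types in the complement results was not tested.

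Ratios to markers gave a view of the members per cell marker, as values only. C1qa per Csf1r, the receptor that macrophages need to survive, was 5.56 and 6.46 in Ctrl, 16.7 and 16.7 in ApoE, and 7.32 and 7.0 in CKD. Against Cd68, a lysosomal glycoprotein that rose more than C1qa in ApoE, the order turned: 13.3 and 12.4 in Ctrl, 2.55 and 1.86 in ApoE, and 11.3 and 10.0 in CKD. Against Adgre1, a macrophage surface protein, C1qa stood at 17.1 and 16.3 in Ctrl, 16.5 and 23.4 in ApoE, and 33.2 and 23.2 in CKD. Whether C1qa rose more or less than a macrophage marker therefore depended on the marker. C3ar1 per Csf1r was 0.137 and 0.148 in Ctrl, 0.962 and 1.11 in ApoE, and 0.089 and 0.120 in CKD. This too depends on the marker. The fitted differences of ApoE against Ctrl were 4.09 for C3ar1 and 1.58 for Csf1r. They were larger than that of C3ar1 for Lyz2 (4.45), Cd68 (5.52), Trem2 (5.77) and Mpeg1 (6.15), and smaller for the other macrophage markers listed. For the stromal-type genes, C4b per Dcn (decorin, a fibroblast proteoglycan) was 0.059 and 0.066 in Ctrl, 0.636 and 0.557 in ApoE, and 0.283 and 0.233 in CKD. C3 per Dcn was 0.234 and 0.321 in Ctrl, 1.25 and 0.751 in ApoE, and 0.930 and 0.681 in CKD, with both disease groups above Ctrl. C3 per Pdgfra, another fibroblast marker, was 7.05 and 7.84, 27.0 and 24.2, and 18.3 and 16.3 in the same order. These ratios also depend on the marker, as Dcn was lower in both ApoE libraries than in Ctrl. Lum, a fibroblast marker too, stood at 139 and 128 FPKM in Ctrl, 211 and 170 in ApoE, and 88.5 and 147 in CKD. No ratio to Lum was taken. Reads of 15.1% of the exon bases of Csf1r could also come from Hmgxb3.

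**Figure D3:**
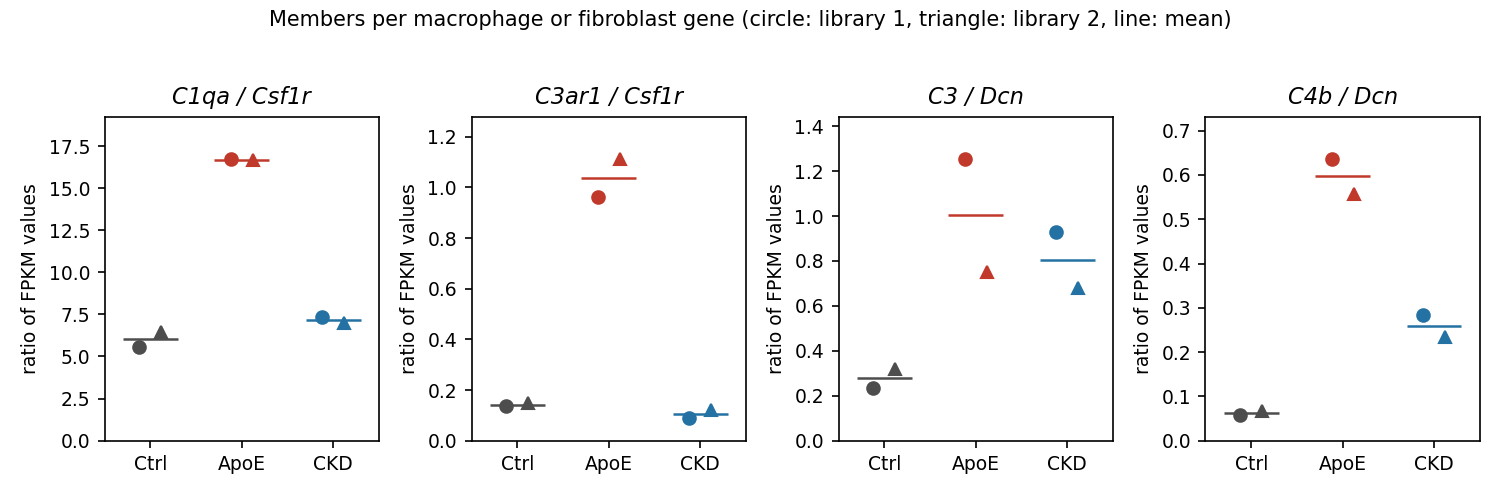
Ratios of FPKM values of a complement member to a macrophage marker (Csf1r) or a fibroblast marker (Dcn) in each library, on linear axes from 0; circles are library 1, triangles library 2 and lines group means. C1qa per Csf1r is 16.7 in both ApoE libraries and at most 7.32 elsewhere, and C4b per Dcn is lowest in the Ctrl libraries.

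The rest of the pathway was followed in 46 other complement genes, 43 of which were measured and 24 tested. In ApoE against Ctrl, 11 were called higher and 2 lower, with a median log2 fold change of 0.12, beside shares of 19.8% and 24.3% over all genes. In CKD, 3 were called higher and none lower (median 0.41), beside 2.23% and 3.21%. In ApoE against CKD, 6 were called higher and 5 lower (median -0.26), close to the 18.5% and 21.2% of all genes. All 6 receptors tested were called higher in ApoE than in Ctrl.

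Among the receptors, Itgax and Itgb2, which pair as an iC3b receptor, had the largest differences in ApoE against Ctrl. Itgax stood at 1.70 and 1.18 FPKM in Ctrl, 71.1 and 115 in ApoE and 3.25 and 9.04 in CKD, a rise of 5.24 in ApoE (SE 0.44, limma adjusted p = 0.000607). Itgb2 stood at 5.61 and 6.43 in Ctrl, 147 and 172 in ApoE and 13.3 and 27.1 in CKD, a rise of 4.51 in ApoE (SE 0.32, limma adjusted p = 0.000396). Vsig4, a C3b receptor of resident macrophages, stood at 1.01 and 0.712 in Ctrl, 15.4 and 7.16 in ApoE and 9.39 and 18.6 in CKD, and was called in both disease groups (2.64 in ApoE, limma adjusted p = 0.00492, and 2.94 in CKD, limma adjusted p = 0.0293). Itgam was likewise called in both (2.61, limma adjusted p = 0.000857, and 1.47, limma adjusted p = 0.0381), but 68.7% of its exon bases lie in Gm49368. C5ar1, a C5a receptor, rose by 1.60 (limma adjusted p = 0.0257) and Cd93 by 1.33 (limma adjusted p = 0.0111) in ApoE. The CKD calls of Vsig4 and Itgam were lost without Ctrl 1, Ctrl 2, ApoE 1, ApoE 2 or CKD 1. In these fits most or all CKD calls over all genes were lost. The CKD call of Itgam was also lost without CKD 2. The ApoE calls of C5ar1 (without Ctrl 1, Ctrl 2 or ApoE 1) and Cd93 (without Ctrl 2, ApoE 1 or ApoE 2) were lost too, at limma adjusted p from 0.0563 to 0.0957.

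Fcna, a lectin that starts the lectin route and is made by macrophages, stood at 2.71 and 2.5 FPKM in Ctrl, 23.0 and 8.13 in ApoE and 21.7 and 21.4 in CKD. It was called higher in ApoE by 2.04 (SE 0.42, limma adjusted p = 0.0122) and in CKD by 2.64 (SE 0.42, limma adjusted p = 0.0356). C7, part of the membrane attack complex, went the other way: 222 and 155 FPKM in Ctrl, 38.4 and 32.3 in ApoE and 100 and 169 in CKD, a fall of 2.37 on the log2 scale in ApoE (SE 0.31, limma adjusted p = 0.00253). With the adipocyte covariate the C7 difference was -1.23 and missed the threshold (limma adjusted p = 0.0589); the ApoE calls of Fcna, Cd55, Cd59a, C5ar1 and C6 were also lost with it (limma adjusted p from 0.110 to 0.410). Cfd, the adipocyte-made protease adipsin that cuts factor B, stood at 247 and 589 in Ctrl, 1841 and 1960 in ApoE, and 4660 and 1606 in CKD. It was called higher in ApoE by 2.31 (SE 0.61, limma adjusted p = 0.0263). With the adipocyte covariate the difference was -0.14 (limma adjusted p = 0.809). The covariate, a mean log2(FPKM + 1), was 3.65 and 4.73 in Ctrl, 6.61 and 6.62 in ApoE, and 7.54 and 5.91 in CKD. As it did not overlap between Ctrl and either disease group, this fit can hardly separate group from adipocyte level. Whether adipocytes account for the Cfd difference was not tested. In CKD its 2.84 (SE 0.61) missed the threshold (limma adjusted p = 0.0549), which it passed without CKD 2 (3.61, limma adjusted p = 0.0257). The ApoE call of Cfd was lost without Ctrl 1, ApoE 1 or ApoE 2 (limma adjusted p from 0.101 to 0.130). Those of Fcna were lost without Ctrl 1 or Ctrl 2 and, in CKD, also without CKD 1. For CKD, most or all calls over all genes were lost in these fits.

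Of the inhibitors, Cd55 rose by 0.69 (limma adjusted p = 0.0255) and Cd59a fell by 0.70 on the log2 scale (limma adjusted p = 0.0109) in ApoE against Ctrl. Against CKD, the C1 inhibitor Serping1 was lower in ApoE by -1.54 (limma adjusted p = 0.0395) and clusterin (Clu) higher by 1.04 (limma adjusted p = 0.0432). The Serping1 call was lost when any 1 library other than ApoE 1 was left out (limma adjusted p from 0.0587 to 0.141), and the Clu call when any other than CKD 2 was (from 0.0550 to 0.181). Those of Cd55 (without Ctrl 1, Ctrl 2 or ApoE 1) and Cd59a (without Ctrl 1, Ctrl 2 or ApoE 2) were lost at limma adjusted p from 0.0570 to 0.122. Serping1 stood at 386 and 298 FPKM in Ctrl, 243 and 102 in ApoE, and 372 and 564 in CKD; Clu at 301 and 261, 268 and 309, and 102 and 190. Cfi and C6, named here after their values were seen, rose in ApoE by 1.99 (limma adjusted p = 0.000665) and 1.26 (limma adjusted p = 0.0135) from levels under 0.2 FPKM in both Ctrl libraries; the C6 call was lost without Ctrl 1 or Ctrl 2 (limma adjusted p from 0.0591 to 0.0593). Colec11 and Masp1, named after their values were seen as well, were called lower in ApoE than in CKD. Their differences were -1.35 (limma adjusted p = 0.00414) and -0.94 (limma adjusted p = 0.0477). The C1 proteases C1ra and C1s1, also named after their values were seen, were not called in any comparison. In ApoE against Ctrl, C1ra differed by -0.48 (SE 0.36, limma adjusted p = 0.316) and C1s1 by -0.27 (SE 0.43, limma adjusted p = 0.642). Without ApoE 1, C1s1 was called lower in ApoE than in CKD (-1.31, limma adjusted p = 0.0335). Of the 50-base windows of C1ra, 48.0% occur in C1rb, and 21.8% of those of C1s1 in C1s2, so both values are uncertain to that extent; C1s1, Fcna and Cd55 also share 18.4%, 6.6% and 2.1% of exon bases with other gene models. The C1q chains thus rose in ApoE while no rise of the proteases they carry was called; the difference between them was not tested.

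**Figure D4:**
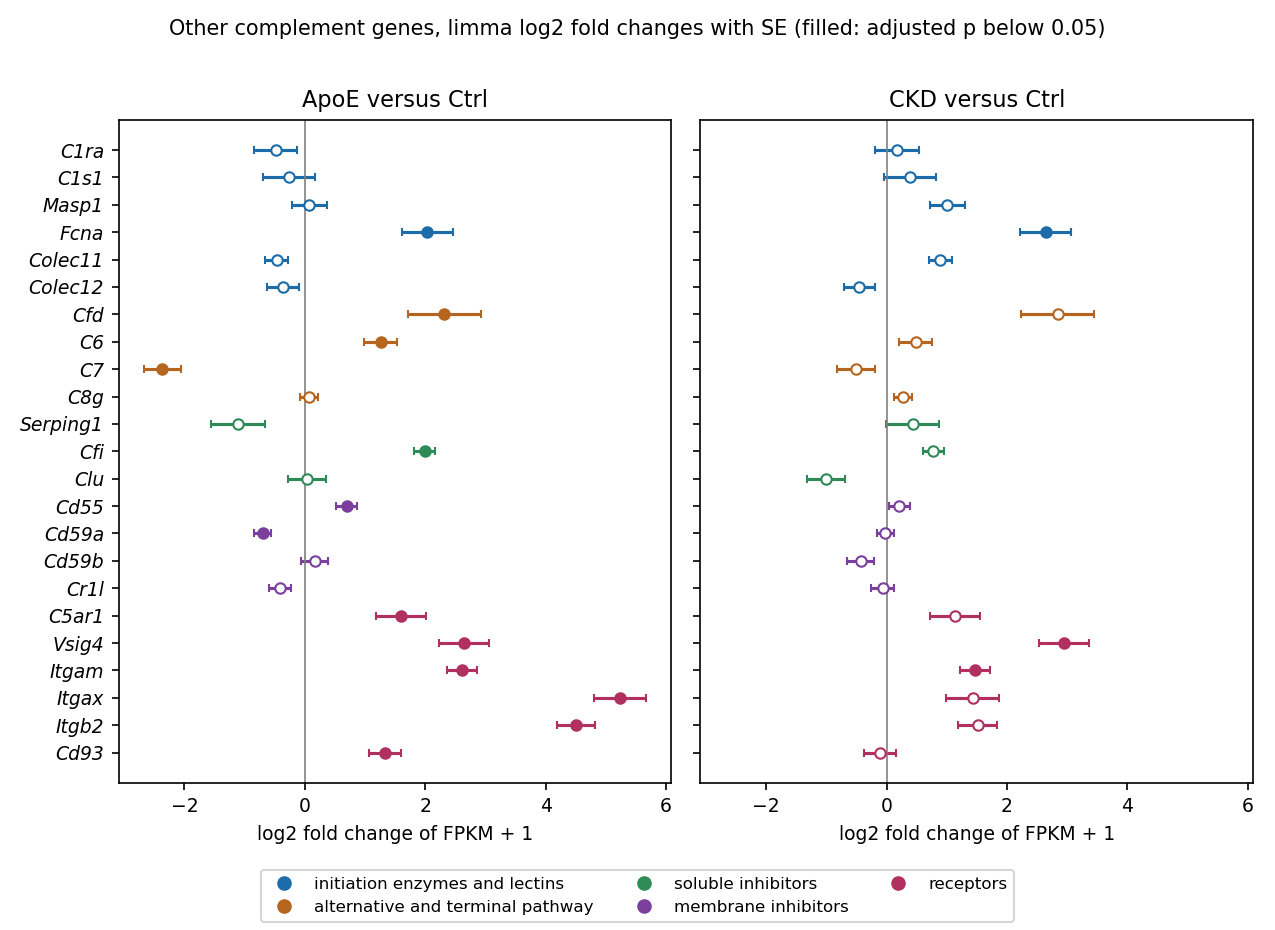
limma log2 fold changes of FPKM + 1 with standard errors for 23 of the 24 other complement genes tested, grouped by role in colour, in ApoE versus Ctrl and CKD versus Ctrl; filled points have an adjusted p below 0.05. All 6 receptors tested are filled in ApoE versus Ctrl, and C7 at -2.37 is the furthest left.

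The genes with the most similar pattern were found for C1qa and C3 by the root mean square difference of centred log2(FPKM + 1) profiles over the 6 libraries, among 7454 genes. For C1qa they were Fcgr3 (0.141), Ms4a6d (0.150), Aldh3b1 (0.171), Irf5 (0.176) and Csf2ra (0.185). Fcgr3, an IgG receptor, stood at 22.0 and 18.0 FPKM in Ctrl, 174 and 175 in ApoE and 31.8 and 55.8 in CKD. For C3 they were Efemp1 (0.176), Pf4 (0.183), Dio2 (0.218), Ednrb (0.237) and Gda (0.250). Efemp1, an extracellular matrix protein, stood at 21.4 and 19.1 FPKM in Ctrl, 67.7 and 26.2 in ApoE and 47.7 and 51.1 in CKD. Pf4 stood at 44.1 and 38.2 in Ctrl, 115 and 55.0 in ApoE and 101 and 144 in CKD. All of these genes shared with C3 the gap between the 2 ApoE libraries, which a search for similar profiles favours. Irf5 and Dio2 overlap another gene model in 14.1% and 1.7% of their exon bases.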

How the data were processed

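RNA of 6 mouse aorta libraries was analysed from the values the authors deposited per gene. No header or label names their unit; they were taken as FPKM because the deposited values, multiplied by GENCODE M21 exon length, gave whole reads within 0.05 for 93.8% to 94.3% of values under 100 reads. The submitters' processing notes name Bowtie2 2.2.3, HISAT2 2.1.0, TopHat2 and build GRCm38; what each did, and which counter and annotation were used, is not given in the sources used here. The kit did not mark strand. For a gene of 2 kb of exon, a single read equals 0.0301 to 0.0346 FPKM, depending on the library. The depth found in this way was 14.44 to 16.64 M reads, and read counts given here rest on it.

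The 14074 genes that reached 1 FPKM in 2 or more libraries were fitted as log2(FPKM + 1) with limma 3.58.1 in R 4.3.3, as group means of all 6 libraries with a variance trend and robust spread. The fit was tested on simulated data. Groups came from the sample titles. All 9 members are named. Other complement genes are named where called with a mean of at least 5 FPKM, plus C4a, Cfd and Gm20547. Those named after their values were seen are marked so in the text. One gene of the lists is counted but not reported here. Members and gene lists were chosen with earlier results of these data known. The alternatives were 3 other scalings, a pseudocount of 0.1, 2 other filters, 4 libraries only, plain limma settings, a replicate block, an adipocyte covariate, summed copies, and each library left out. With 2 libraries against 2, an exact two-sided permutation test cannot go below p = 0.333, so none was made.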

Additional observations from a re-analysis of the deposited data

How the results depend on the processing

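Counts of called members in ApoE against Ctrl (5 to 7) and against CKD (5 to 6) stayed within 1.5 times those reported under every alternative run. Group differences of the macrophage-type minus stromal-type contrast moved by less than the spread between libraries under 3 other scalings and a pseudocount of 0.1; it uses no filter, so none was varied. With C2 and Cfb left out, an alternative chosen after seeing the data, they became 1.76 for ApoE and -0.80 for CKD against Ctrl. The CKD calls did not. Of the 4 members called in CKD against Ctrl, limma called 0 without a low-value filter and 0 with only the 4 libraries compared. With adipocyte level as a covariate it also called 0, with larger fitted differences. Over all genes it called 1, 3 and 0 in these fits. At an unadjusted p below 0.05 it called 6 of 9 members tested without a filter, beside 5269 of 27815 genes. With the 4 libraries these were 5 of 8 beside 3880 of 13200, and with the covariate 6 of 8 beside 1204 of 14074. With 1 library left out, most or all CKD calls of members, other complement genes and all genes were lost, except without CKD 2. Among other complement genes the 3 CKD calls became 0 without a filter (13 of 43 unadjusted), 1 with the 4 libraries and 0 with the covariate (9 of 24 unadjusted). Their 13 calls in ApoE against Ctrl became 6 with the covariate and 7 to 14 with 1 library left out, and their 11 against CKD became 5 to 10. Cfd in ApoE against Ctrl was -0.14 with the covariate. As the covariate did not overlap between Ctrl and either disease group, calls lost with it cannot separate group from adipocyte level. Over all genes, 766 were called in CKD against Ctrl and between 0 and 2366 with 1 library left out, and 6208 in ApoE against Ctrl but 1530 with the covariate. The cause of these changes was not tested.

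Replicate numbers are not stated to pair the libraries. Deviations from the group means correlated across genes by 0.05 (Ctrl and ApoE), -0.23 (Ctrl and CKD) and -0.10 (ApoE and CKD). With a single difference between libraries in each group, these values cannot show whether libraries were paired. With the replicate block, 0 members (5 of 8 unadjusted) and 0 other complement genes (10 of 24 unadjusted) were called in CKD against Ctrl. Of all 14074 genes, 46 were called (3606 unadjusted).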
